A study of Mus musculus with 30 samples.

Results

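H3K27me3 regions that carry no H3K4me3 in wild-type mouse motor neurons were described here. They were all regions of the wild-type H3K27me3 list that shared not a single base with any region of the wild-type H3K4me3 list. They numbered 2850 of 9365 H3K27me3 regions (30.4%), and the remaining 6515 overlapped H3K4me3. The series holds 30 libraries, 22 by ChIP-seq and 8 by RNA-seq, of motor neurons made from mouse embryonic stem (ES) cells, and of those ES cells. HD and EH are lines that the labels give as Mnx1KO, without saying what either name means, and Mnx1 is a homeodomain transcription factor of motor neurons. RNA was measured in HD, EH and wild-type motor neurons and in wild-type ES cells (2 libraries each), and H3K27me3, H3K4me3, H3K4me1, H3K27ac and H3K9me3 in HD and wild-type motor neurons. All motor neurons, whatever their genotype, were taken at day 6 of a differentiation that used retinoic acid (RA), the Smoothened agonist SAG and doxycycline (DOX), at 1 µM each, with 5 µM DAPT, which blocks Notch signalling. Whether replicates came from separate cultures is not in the labels, so errors and p-values cover the spread between these libraries alone, which may be technical.

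H3K27me3 is written by Polycomb repressive complex PRC2, and in stem cells and developing tissue it covers the starts of genes for transcription factors and signals of other lineages. There it often lies together with H3K4me3, a mark of gene starts, in domains called bivalent. H3K4me1 marks enhancers and the flanks of gene starts, H3K27ac marks active elements, and H3K9me3 marks heterochromatin. The separation of H3K27me3 regions by H3K4me3 asks which of the regions lie away from that bivalent state.

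The start windows of a few genes show DNA where a region met a gene start. Only 91 of the 2850 regions (3.19%) overlapped a start window, so the DNA under the others is not shown. A window runs from 250 bases before to 50 bases after the start of a gene (RefSeq, GRCm38.p6, which is the mm10 build of the files), it is written 5′ to 3′ on the strand of the gene, and capitals mark each CpG (the letters CG, which read the same on both strands). No start window of a coding gene lay in the 3 regions without H3K4me3 of highest enrichment, so 3 others are given, chosen after their values were seen: Nanog and Pou5f1, transcription factors of pluripotent cells, and Gfi1b, a repressor of blood cells whose start window lay in the most enriched of the regions that overlapped the start window of a coding gene. Nanog (chr6:122707239-122707538, plus strand) held 4 CpG, Pou5f1 (chr17:35505782-35506081, plus strand) 11 and Gfi1b (chr2:28621933-28622232, minus strand) 7.
Nanog: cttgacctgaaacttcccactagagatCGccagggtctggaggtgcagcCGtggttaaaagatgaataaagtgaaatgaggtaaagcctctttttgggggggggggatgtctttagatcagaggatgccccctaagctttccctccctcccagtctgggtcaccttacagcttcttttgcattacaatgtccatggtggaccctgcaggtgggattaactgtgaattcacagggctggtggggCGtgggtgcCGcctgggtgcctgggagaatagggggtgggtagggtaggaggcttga
Pou5f1: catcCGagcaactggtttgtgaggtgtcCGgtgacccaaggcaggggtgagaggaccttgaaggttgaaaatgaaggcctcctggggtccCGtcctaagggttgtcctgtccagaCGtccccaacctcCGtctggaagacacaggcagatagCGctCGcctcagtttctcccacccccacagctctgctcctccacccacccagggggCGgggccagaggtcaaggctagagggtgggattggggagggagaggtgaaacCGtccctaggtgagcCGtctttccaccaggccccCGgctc
Gfi1b: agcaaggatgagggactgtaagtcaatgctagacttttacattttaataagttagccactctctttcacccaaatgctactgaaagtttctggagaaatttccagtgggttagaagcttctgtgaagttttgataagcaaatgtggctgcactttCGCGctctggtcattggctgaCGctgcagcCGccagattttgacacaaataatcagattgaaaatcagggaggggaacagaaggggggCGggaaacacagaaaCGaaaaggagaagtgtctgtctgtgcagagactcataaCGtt
For comparison, windows are given from the 3 H3K27me3 regions with H3K4me3 of highest enrichment. Of these, 2 held the start of a coding gene: Tmem59l (chr8:70487299-70487598, minus strand) with 20 CpG and Uncx, a homeodomain factor (chr5:139543648-139543947, plus strand), with 26.
Tmem59l: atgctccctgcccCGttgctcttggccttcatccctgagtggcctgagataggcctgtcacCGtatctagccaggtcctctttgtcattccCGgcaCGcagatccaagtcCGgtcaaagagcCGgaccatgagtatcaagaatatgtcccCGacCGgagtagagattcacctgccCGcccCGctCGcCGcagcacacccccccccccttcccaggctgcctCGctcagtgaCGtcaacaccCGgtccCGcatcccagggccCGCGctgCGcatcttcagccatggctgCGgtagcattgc
Uncx: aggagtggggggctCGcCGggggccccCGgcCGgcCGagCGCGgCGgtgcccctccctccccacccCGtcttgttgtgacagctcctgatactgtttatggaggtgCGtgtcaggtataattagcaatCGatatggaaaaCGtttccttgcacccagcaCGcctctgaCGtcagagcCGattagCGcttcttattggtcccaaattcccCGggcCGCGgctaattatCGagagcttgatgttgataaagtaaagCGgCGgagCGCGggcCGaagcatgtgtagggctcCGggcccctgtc
Each of the 3 windows without H3K4me3 thus held fewer CpG than either window with it. These few windows were picked, and the rule leaves out H3K4me3, under which windows were rich in CpG. The difference is therefore partly set by the rule, and the counts over all windows are given further on.

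The regions without H3K4me3 were short and weakly enriched. They were chosen by the peak calls of the wild-type H3K27me3 and H3K4me3 lists, so their width and fold are given as a description. Their width ran from 400 to 8193 bases with a median of 629.5, against a median of 1890 in regions with H3K4me3, and 78.4% were under 1 kb, against 26.7%. Their fold enrichment, which is the authors' value for a peak, had a median of 2.99, against 4.14 in regions with H3K4me3. Only 30 of the 2850 reached a fold of 5, and 12 were 4 kb or wider. Together they covered 2.33 Mb, or 11.5% of all width under H3K27me3. At the edge of the rule, 64 regions lay under 100 bases from H3K4me3, with a median width of 608.5 bases and a median fold of 2.98. Just across it, 72 regions shared under 100 bases with H3K4me3, with a median width of 623 bases and a median fold of 3.06. H3K4me1 overlapped 68.8% of the 64 and 73.6% of the 72, and 26.6% and 19.4% were listed in HD. Regions on the 2 sides of the edge were thus of like size, and H3K4me1 was frequent on both.

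**Figure D1:**
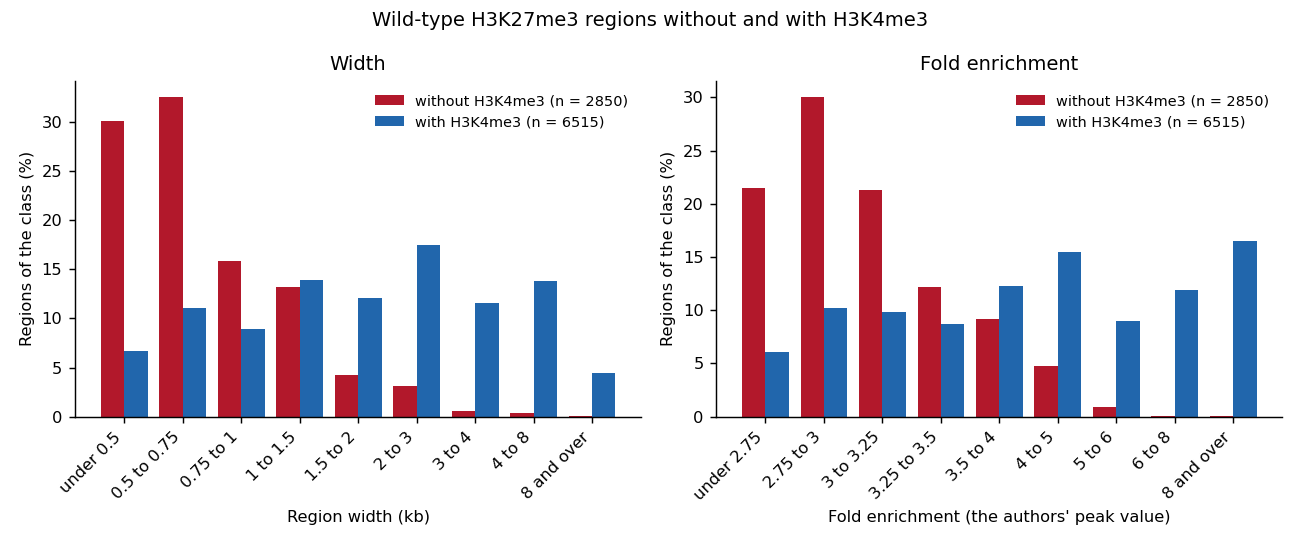
Share of wild-type H3K27me3 regions without H3K4me3 (red, n = 2850) and with H3K4me3 (blue, n = 6515) by width in kb (left) and by fold enrichment (right). Of the regions without H3K4me3, 78.4% were under 1 kb wide, against 26.7% with it.

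The 3 widest of these regions lay at Pax3 and Evx2, genes of development, and others of great width or fold at genes of varied kinds. The widest, with the highest fold enrichment of all 2850, lay inside Pax3, a paired-box factor of the dorsal neural tube, neural crest and muscle (chr1:78136698-78144890, mm10). It was 8193 bases wide with a fold of 8.58 and lay 43917 bases from the nearest H3K4me3. Another inside Pax3 (chr1:78166833-78172871) was 6039 bases wide with a fold of 5.96. Next after the first in width was a region of 6484 bases overlapping Evx2, the homeobox gene at the edge of the HoxD cluster (chr2:74646590-74653073), with a fold of 7.25. In contrast to the Pax3 region it lay only 1875 bases from H3K4me3. The others of greatest width lay beside Cdh22, a cadherin (5787 bases, fold 4.36), in Tcte1, a testis gene (5517 bases, fold 4.81), and 135396 bases from Irf8, a factor of myeloid cells (5483 bases, fold 4.75). Those of highest fold also included regions overlapping Rtbdn (6.30), the heat shock gene Hspa1a (6.26) and Exoc3l2 (5.93). All of the regions named so far were also listed in HD. Some genes had many: Cdh22 and Pax3 were nearest to 17 regions each, Pou3f1, a POU factor, to 16, and Prdm16, a zinc finger factor, and Shq1 to 11 each. Those of Pou3f1 all lay outside the gene, and 16 of the 17 of Pax3 overlapped it.

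Most of the regions lay away from gene starts. Of the 2850, 46.4% overlapped a coding gene, against 82.6% of regions with H3K4me3, and 23.0% had an end of a coding gene within 2 kb, against 69.6%. Distance to the nearest start of a coding gene was taken to the upstream end of the gene, where the RefSeq start table gave its strand. Its median was 17.9 kb for 2769 regions without H3K4me3 and 2.09 kb for 6302 regions with it (chromosome 18 is not in that table). A distance to a start is partly set by the rule, since H3K4me3 marks starts. By chromosome, the share of H3K27me3 regions without H3K4me3 was highest on chromosome 4 (330 of 799, 41.3%) and lowest on chromosome X (9 of 118, 7.63%).

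Many of the regions lay beside H3K27me3 that carried H3K4me3. When H3K27me3 regions under 3 kb apart were joined, 44.5% of the regions without H3K4me3 fell into a domain that held H3K4me3, 11.3% into a domain made of such regions only, and 44.1% stood alone. The median gap to the nearest H3K4me3 was 3.63 kb. Of all 2850, 770 lay within 1 kb of an H3K27me3 region with H3K4me3. Lone regions overlapped H3K4me1 more often than those in domains with H3K4me3 (42.1% against 24.7%) and were listed in HD less often (12.6% against 19.8%), as shares without a test.

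H3K4me1 lay on a minority of the regions, and H3K27ac on almost none. In wild type, 953 of the 2850 regions (33.4%, exact 95% interval 31.7 to 35.2) overlapped an H3K4me1 region, against 5960 of 6515 with H3K4me3 (91.5%, 90.8 to 92.1). Where H3K4me1 overlapped, it covered a median of 77.1% of the region. The difference held at every width: at 400 to 500 bases 27.9% of regions without H3K4me3 and 80.5% with it overlapped H3K4me1, and at 2 to 4 kb 51.9% and 97.2%. H3K27ac overlapped 14 of the regions without H3K4me3 (0.491%, 0.269 to 0.823) and 1540 of those with it (23.6%). Mnx1 regions of wild type overlapped 5 without H3K4me3 (0.175%) and 188 with it (2.89%). The 4 most enriched of the 5 lay at Tfap2d, an AP-2 family factor (fold 4.18), Ttll6, a tubulin-modifying enzyme (3.57), Lrig1 (3.22) and Camta1 (3.02). There is 1 list per mark and genotype, so these intervals cover counting error only and no replicate spread can be given.

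H3K9me3 overlapped few of the regions, and at widths under 2 kb about as often as it overlapped regions with H3K4me3. In wild type 268 of the 2850 (9.40%, 8.36 to 10.5) overlapped H3K9me3, against 2255 of 6515 (34.6%, 33.5 to 35.8). By width the shares were 4.67% without and 3.45% with H3K4me3 at 400 to 500 bases, 7.25% and 7.36% at 500 to 1000 bases, and 17.7% and 17.2% at 1 to 2 kb, with intervals that overlap. At 2 to 4 kb they were 28.3% (upper bound 37.9) and 45.1% (lower bound 42.9), where the intervals did not overlap. At 4 kb or more they were 83.3% (51.6 to 97.9, 12 regions) and 83.9% (81.7 to 86.0), which overlap again. Regions of like width were not of like fold: at 2 to 4 kb the median fold was 3.74 without and 5.41 with H3K4me3. By fold, the H3K9me3 shares were 10.1% without and 12.0% with H3K4me3 at 3 to 4. They were 30.1% and 27.5% at 4 to 5, and 42.3% and 42.9% at 5 to 6, all with overlapping intervals. Of the 4 widest that carried H3K9me3, the one in Pax3 was covered by it over 29.5% of its width, the one at Evx2 over 38.9%, the second in Pax3 over 11.7% and the one beside Cdh22 over 11.4%. Both H3K4me1 and H3K9me3 lay on 1.86% of the regions without H3K4me3, against 32.3% of those with it, and neither on 59.0%, against 6.17%. H3K9me3 was measured in 1 library per genotype.

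**Figure D2:**
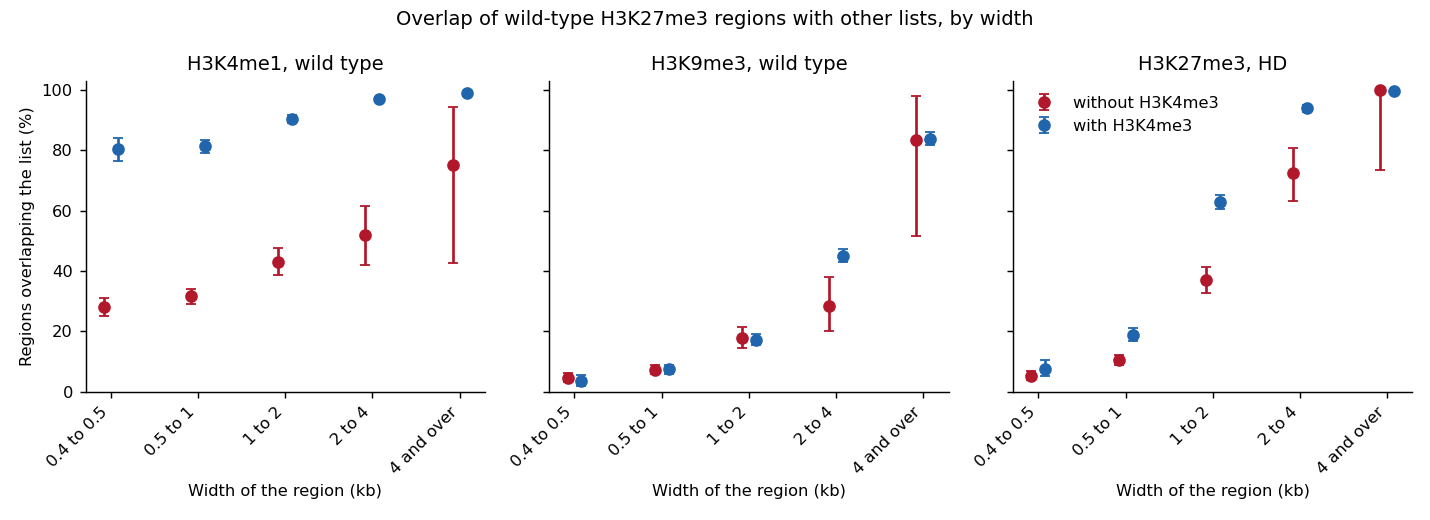
Share of wild-type H3K27me3 regions without H3K4me3 (red) and with H3K4me3 (blue) that overlapped H3K4me1 in wild type (left), H3K9me3 in wild type (middle) and H3K27me3 in HD (right), by region width in kb. Points are shares and bars exact 95% intervals for counting error; at 1 to 2 kb the H3K9me3 shares were 17.7% and 17.2%, and the H3K4me1 shares 43.1% and 90.5%.

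Fewer of the regions without H3K4me3 were listed in HD. In HD, 463 of the 2850 (16.2%, 14.9 to 17.7) overlapped an H3K27me3 region, against 4309 of 6515 with H3K4me3 (66.1%, 65.0 to 67.3) and 51.0% of all 9365. The HD list is shorter as a whole, with 5729 regions, and presence in it went with the size of the wild-type region. Those listed in HD had a median width of 1171 bases and a median wild-type fold of 3.49, and those not listed 588 bases and 2.94. By fold the shares differed: at a fold of 3 to 4, 20.4% of regions without H3K4me3 (18.2 to 22.8) and 42.2% with it (40.0 to 44.4) were listed, and at 4 to 5, 72.1% (63.7 to 79.4) and 89.9% (87.9 to 91.7). At a fold of 5 to 6 the shares were 96.2% and 99.3%, with overlapping intervals. Regions of like fold were not of like width: the median width was 705 bases without and 1174 with H3K4me3 at a fold of 3 to 4, and 1291 and 2075.5 bases at 4 to 5. By width, 5.26% of regions without H3K4me3 (3.86 to 6.97) and 7.59% with it (5.28 to 10.5) were listed at 400 to 500 bases, where the intervals overlap. At 500 to 1000 bases the shares were 10.5% and 18.9%, at 1 to 2 kb 37.0% and 62.8%, at 2 to 4 kb 72.6% and 93.9%, and at 4 kb or more 100% and 99.8%. Regions of like width were in turn not of like fold. The median fold was 3.27 without and 3.73 with H3K4me3 at 1 to 2 kb, and 3.74 and 5.41 at 2 to 4 kb. In the 463 pairs the median fold was 3.03 in HD and 3.49 in wild type, and it was lower in HD in 341. Selection by the wild-type list favours high wild-type values, and depth of the ChIP libraries is not in the files. The part of both in this was not tested. Folds of regions with H3K4me3 were not paired, so whether the lower HD fold was particular to the 463 was not tested.

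The regions of highest fold that were not listed in HD lay 56374 bases from Jarid2, a subunit of PRC2 (chr13:44673523-44674399, fold 5.07, covered by H3K4me1 over its whole width), 75001 bases from Arap3 (4.87), 29346 bases from Fam222a (4.86) and in Duoxa1, a maturation factor of an oxidase (4.83). H3K4me3 of HD overlapped 28 of the 2850 (0.982%), against 6023 of 6515 (92.4%), so nearly all regions that lacked H3K4me3 in wild type lacked it in HD too. H3K4me1 of HD overlapped 18.7% of them, against 73.4%, and H3K9me3 of HD 4.91%, against 23.1%. When the rule was applied to the HD lists, 1212 of 5729 HD regions (21.2%) carried no H3K4me3, of which 87.9% overlapped a wild-type H3K27me3 region. Of these 1212, 433 overlapped a wild-type region without H3K4me3 and 640 a wild-type region with it.

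Few gene starts lay at the regions, and their windows held fewer CpG than windows under H3K4me3. Of 17492 coding genes with a start window, 50 had a window that overlapped a region without H3K4me3 and 46 of the 50 had no other window under H3K4me3. Over all genes 96 windows lay there, with a median of 6 CpG per window, and 8.33% held 15 or more. In H3K27me3 regions with H3K4me3, 3289 windows under H3K4me3 had a median of 19 CpG, and 64.8% held 15 or more. Windows under H3K4me3 only had a median of 21, windows under neither mark 3, and all 32851 windows 7 (34.6% with 15 or more). A low CpG count is thus partly set by the rule, which leaves out H3K4me3. Windows in an H3K27me3 region with H3K4me3 but outside the H3K4me3 itself had a median of 5 CpG. Of the 96 windows, 41.7% also lay under H3K4me1.

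**Figure D3:**
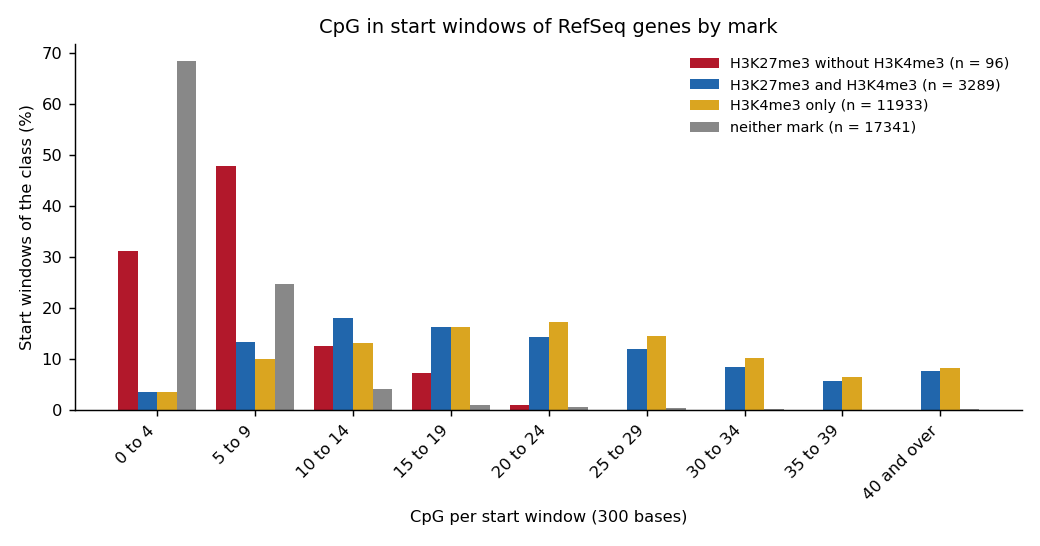
Share of RefSeq start windows of 300 bases by number of CpG, for windows in H3K27me3 regions without H3K4me3 (red, n = 96), in H3K27me3 regions and under H3K4me3 (blue), under H3K4me3 only (yellow) and under neither mark (grey). The median was 6 CpG in the red class and 19 in the blue.

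The genes whose start window overlapped such a region included regulators of pluripotency with a high level in ES cells and tissue genes with almost no RNA in any library. RNA levels are given as TPM, a level per transcript length that sums to the same total in each library, and tests are of edgeR on counts. The group was put together after its values were seen. Nanog stood at 4.15 and 3.02 TPM in wild-type motor neurons, against 227 and 138 TPM in ES cells, and fell by 6.32 ± 0.56 on the log2 scale (± SE; edgeR quasi-likelihood test, Benjamini-Hochberg adjusted p = 1.66e-05). Pou5f1 had 11.5 and 13.5 TPM in wild-type motor neurons, against 1605 and 1454 TPM in ES cells, and fell by 7.65 ± 0.58 on that scale (edgeR, adjusted p = 6.34e-06). In both genes the groups did not overlap, and reads of pseudogenes with near-identical sequence make their exact levels uncertain. Tcl1, a co-activator of the kinase Akt, had 0.85 and 0.11 TPM, against 90.0 and 45.2 TPM in ES cells (log2 fold change -7.86 ± 0.87), but only 4 bases of its window lay in the region. Gna15, a G protein subunit of blood cells, also fell (-4.57 ± 0.53), as did Cd37 (-3.16 ± 0.66), Slc24a1 (-4.12 ± 0.62), Vav1 (-2.89 ± 0.84), Foxr1 (-2.85 ± 0.63) and Myo1h (-2.79 ± 0.62).

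Other genes of this kind were higher in motor neurons. Inha, the inhibin alpha subunit, had 12.4 and 6.94 TPM in wild-type motor neurons, against 0.61 and 0.47 TPM in ES cells (log2 fold change 3.50 ± 0.36). Slc13a2, a dicarboxylate transporter, had 4.10 and 4.87 TPM, against 0.08 and 0.01 TPM (5.93 ± 0.63), and Palm3 had 71.5 and 74.5 TPM, against 34.3 and 30.5 TPM (0.56 ± 0.14). The H3K27me3 region over the Palm3 start window had a fold of 4.67. Of 47 genes with RNA values, 27 were tested against ES cells, where 12 rose and 9 fell. Over all 17770 genes tested 38.8% rose and 36.5% fell, and over all coding genes tested 41.3% and 36.1%. Among tested genes with no start window under H3K4me3, 9 rose and 9 fell of 23. The 20 of the 47 genes that were not tested did not pass the filter on low counts, and 28 of the 47 stayed under 1 TPM in all 8 libraries. Among these were Gfi1b, at 0 TPM in all 6 motor neuron libraries and at 0.07 and 0.08 TPM in ES cells, the cytokine genes Tnf and Lta and the sperm protamine Prm1. Over the 47 genes the median TPM was 0.25 and 0.24 in wild-type motor neurons and 0.24 and 0.17 in ES cells. In such bulk RNA, fewer cells of a type and less RNA per cell cannot be told apart. Markers of ES cells (Pou5f1, Nanog, Zfp42, Tdgf1 and Fbxo15, summed) stood at 38.2 and 42.1 TPM in wild-type motor neurons, against 3001 and 2659 TPM in ES cells. This sum includes Nanog and Pou5f1 themselves, so it is no separate measure beside them. The part of remaining ES cells in their levels in motor neurons was not tested.

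**Figure D4:**
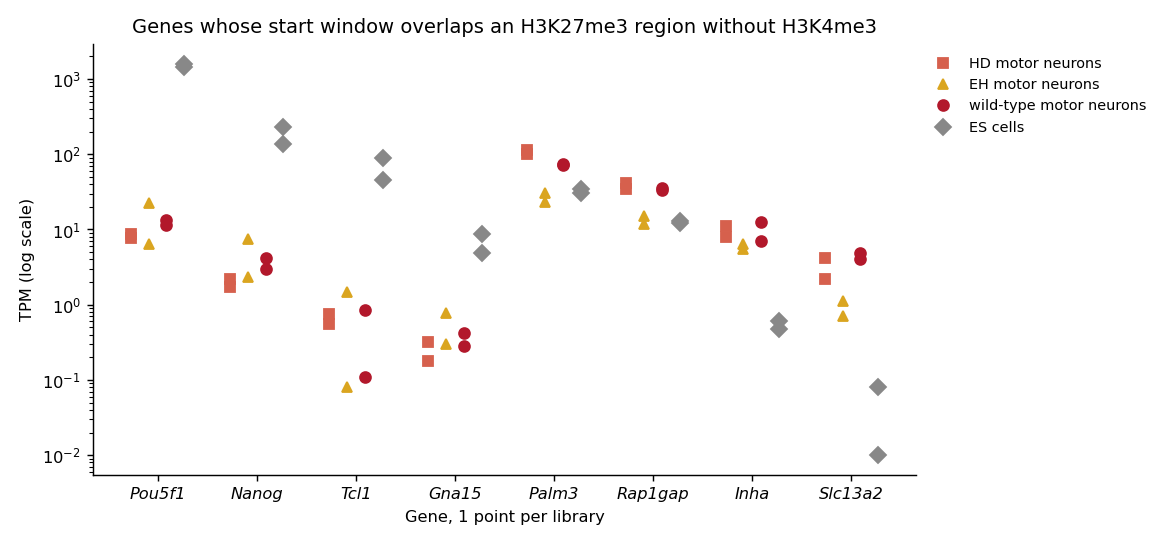
TPM (log scale) of 8 genes whose start window overlaps an H3K27me3 region without H3K4me3, 1 point per library, in HD, EH and wild-type motor neurons and in ES cells. Pou5f1 lies at 11.5 and 13.5 TPM in wild-type motor neurons and at 1605 and 1454 TPM in ES cells, and Palm3 at 71.5 and 74.5 TPM and at 34.3 and 30.5 TPM.

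In all, 1872 coding genes were nearest to, or overlapped by, a region without H3K4me3, of which 1300 were also nearest to a region with H3K4me3 and 572 were not. Of them 1844 had RNA values. Their median TPM was 3.81 and 3.94 in the HD libraries, 3.23 and 2.85 in EH, 4.18 and 4.10 in wild-type motor neurons and 1.46 and 1.43 in ES cells. All coding genes had a median of 6.56 and 6.25 TPM in wild-type motor neurons. Genes near no region with H3K4me3 (563 with values) stood near that, at 6.83 and 5.52 TPM, and genes near both classes (1281 with values) at 3.79 and 3.76 TPM. For genes with an end within 2 kb of a region (674 with values) the median was lower, at 2.32 and 2.02 TPM in wild-type motor neurons and 0.995 and 1.03 TPM in ES cells.

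**Figure D5:**
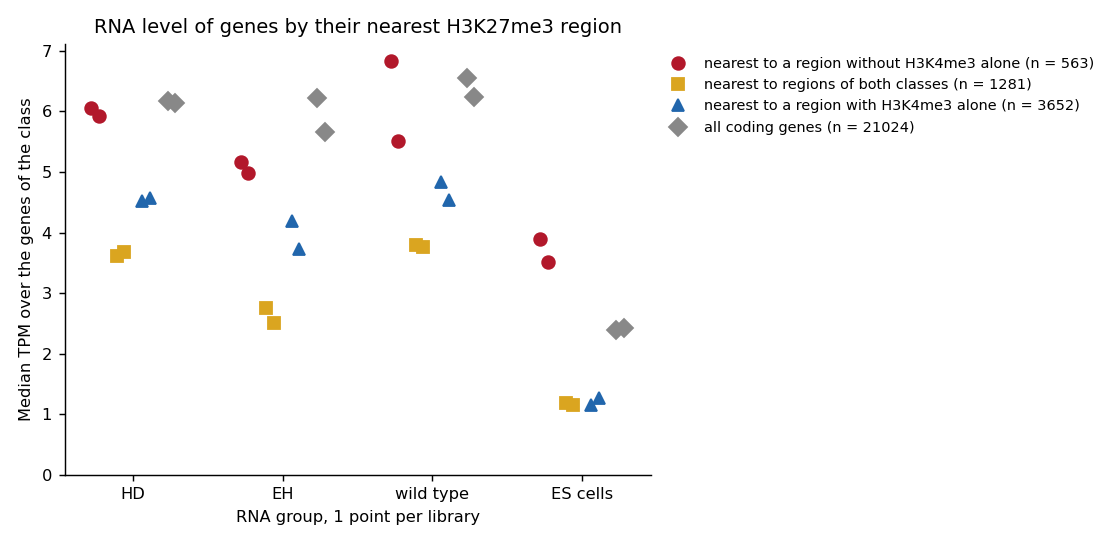
Median TPM over genes nearest to an H3K27me3 region without H3K4me3 alone (red circles), to regions of both classes (yellow squares), to a region with H3K4me3 alone (blue triangles) and over all coding genes (grey), 1 point per library. In wild-type motor neurons the red points lie at 6.83 and 5.52 TPM and the yellow at 3.79 and 3.76 TPM.

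By gene family, regions without H3K4me3 were nearest to 8.55% of all coding genes. They were nearest to 9 of 12 Pax genes, 11 of 19 Wnt genes, 8 of 14 Nkx genes, 18 of 46 Fox genes and 6 of 19 Sox genes, all families of developmental regulators. Of other such families, they were nearest to 3 of 9 Gata genes, 5 of 15 Tbx genes and 6 of 30 Fgf genes, but only to 1 of 16 Bmp genes (6.25%). Regions with H3K4me3 were nearest to 8 of the 12 Pax genes, all 19 Wnt genes, all 14 Nkx genes, 32 of the 46 Fox genes and 16 of the 19 Sox genes, against 22.9% of all coding genes. Genes near regions without H3K4me3 alone numbered 1 of 12 for Pax, 4 of 46 for Fox and 0 for Wnt, Nkx and Sox. The share over all coding genes was 2.61%. Regions without H3K4me3 were nearest to 2 of 39 Hox genes (Hoxb13 and Hoxc13), although 37 of the 39 were nearest to a region with H3K4me3. Of 69 protocadherin genes 35 were nearest to one, many of them copies in tandem that share a locus. Olfactory receptor genes (1 of 1110) and vomeronasal receptor genes (0 of 355) had almost none. Of the 1005 hairpins of miRNAs that RefSeq lists, 6 lay in a region without H3K4me3, among them Mir135b and Mir1897, and 60 in a region with it.

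A comparison with ES cells asked which genes near the regions changed on induction to motor neurons. Of 1534 coding genes tested, 710 rose (46.3%) and 491 fell (32.0%). Of all coding genes tested 41.3% rose and 36.1% fell, and of all genes tested, coding or not, 38.8% and 36.5%. The median log2 fold change was 0.41, against 0.09 for all coding genes and 0.02 for all genes. The genes near no region with H3K4me3 split evenly, with 167 of 432 higher and 172 lower, and those near both classes had 543 of 1102 higher and 319 lower. Among the largest rises was Onecut3, a cut homeodomain factor, with 37.3 and 31.7 TPM in wild-type motor neurons and 1 count in ES cells in all (ratio 9639, counting interval 1728 to 380853). Lrrc4b, a synaptic adhesion protein, had 62.9 and 57.8 TPM, against 0.04 and 0.03 TPM in ES cells (log2 fold change 10.08 ± 0.18). Nkx6-1, a factor of motor neuron progenitors, had 29.3 and 23.8 TPM, against 0.01 and 0.03 TPM (9.52 ± 0.36), and Ntng1, a netrin family membrane protein, rose by 9.21 ± 0.40. Each of these was set apart from ES cells by far more than its libraries differed. The protocadherins Pcdha2 and Pcdhb5 had no counts in ES cells and were at least 426-fold and 396-fold higher (floor of 3 counts over the group); their reads can be shared among near-identical copies.

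Ranked by the edgeR log2 fold change, the largest falls were of genes almost silent in motor neurons. That value is unsure where a group has almost no counts, so a ratio or a bound is given instead. The bounds do not place these genes above genes with a measured fall, such as Pou5f1. Foxd3, a factor of stem cells and neural crest, had 0.06 and 0.11 TPM in wild-type motor neurons, against 16.8 and 16.3 TPM in ES cells (ratio of ES cells to motor neurons 250, counting interval 85.5 to 1214). Aldh3a1, an aldehyde dehydrogenase, Il17b, a cytokine, Upk2, a urothelial protein, and Ttc29 were without a single count in both wild-type libraries, and were at least 24.1-fold, 16.1-fold, 9.49-fold and 8.78-fold lower. At the other end were the most abundant RNAs near a region, the ribosomal proteins Rplp1 (3161 and 3118 TPM in wild-type motor neurons), Rpl26, Rpl38 and Rpl11, the tubulin regulator Stmn1, the G protein subunit Gnas, Rack1 and the retinoic acid binding protein Crabp1.

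By gene list, again against ES cells, all 7 pluripotency genes that were nearest to a region fell (median log2 fold change -5.54), as did all 20 of the full list (-5.13). Beside Nanog and Pou5f1 they included the nuclear receptor Esrrb, with 5.31 and 5.16 TPM in wild-type motor neurons, against 241 and 142 TPM in ES cells (-5.54 ± 0.39), Tbx3 (-2.50 ± 0.47) and Dppa3 (-4.97 ± 0.66). All 11 tested channels and receptors of neurons rose (full list 35 of 37), among them the glutamate receptor Grin1 (2.32 ± 0.19). All 4 motor neuron genes near a region rose too (full list 19 of 20), with Neurog2 at 8.72 ± 0.23. Of the spinal interneuron factors 21 of 34 were nearest to a region, and all 34 were nearest to a region with H3K4me3. Of the 21, 7 rose and 5 fell of 13 tested (full list 12 and 8 of 23). Pax2, an interneuron factor, had 1.50 and 1.64 TPM, against 0.11 and 0.04 TPM in ES cells (3.73 ± 0.43).

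Other lists were split or rose in part, where 41.3% of all coding genes rose and 36.1% fell (38.8% and 36.5% of all genes). Higher and lower genes near a region numbered 3 and 1 of 9 tested for neural crest and placode factors (full list 8 and 3 of 17), 7 and 2 of 12 for mesoderm and muscle factors (11 and 3 of 19), 4 and 1 of 6 for endoderm factors (8 and 4 of 15) and 4 and 0 of 5 for blood and endothelial factors (7 and 6 of 15). They numbered 3 and 0 of 9 for Wnt ligands (4 and 0 of 12), 3 and 3 of 7 for TGF-beta superfamily ligands (10 and 8 of 22), 3 and 2 of 6 for glial genes (7 and 5 of 16) and 0 and 1 of 2 for Hox genes (26 and 2 of 29). The blood factor Runx1 had 8.08 and 5.31 TPM in wild-type motor neurons, against 0.38 and 0.45 TPM in ES cells (3.74 ± 0.23). Of the Polycomb and H3K27 demethylase genes, 5 of 34 were nearest to a region, of which Cbx2 and Pcgf1 rose and Jarid2, Cbx7 and Rybp fell. Cbx2, a chromodomain subunit of PRC1, had 41.1 and 35.5 TPM in wild-type motor neurons, against 11.9 and 11.6 TPM in ES cells (1.08 ± 0.11), and Jarid2 had 82.3 and 81.0 TPM, against 183 and 176 TPM (-1.79 ± 0.12). Over the whole list 12 rose and 14 fell; the PRC2 core gene Eed fell by 3.06 ± 0.16 on the log2 scale, Ezh2 by 1.15 ± 0.13 and Suz12 by 1.36 ± 0.13. Markers of trophoblast (Tpbpa, Prl2a1, Ctsq and Ctsj, none of them at 0 in every motor neuron library) summed to 528 and 449 TPM in wild-type motor neurons, against 0 TPM in both ES libraries, and markers of endoderm (Sox17, Foxa2, Afp and Krt8) to 646 and 797 TPM, against 17.2 and 21.7 TPM. The part of these marker levels in the changes was not tested.

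HD differed from wild type in few genes near the regions. Of 1346 tested, 4 rose and 1 fell, against 0.135% higher and 0.0385% lower of all 15565 genes. Of 13925 coding genes tested, 0.144% rose and 0.0359% fell. Dmrt3, a factor of spinal interneurons, had 14.3 and 16.7 TPM in HD, against 2.58 and 2.54 TPM in wild type (log2 fold change 2.61 ± 0.18; edgeR Benjamini-Hochberg adjusted p = 0.0102). Chl1, a cell adhesion molecule, had 39.2 and 35.3 TPM in HD, against 8.55 and 9.99 TPM in wild type (2.01 ± 0.14), and Ntng1 48.0 and 40.2 TPM, against 16.3 and 19.0 TPM (1.31 ± 0.13). Ddhd1, a phospholipase, rose by 0.96 ± 0.11, and Pou3f1 fell to 1.83 and 1.97 TPM in HD, against 11.1 and 11.2 TPM in wild type (-2.54 ± 0.19). None of the 5 was among the 374 tested genes near no region with H3K4me3, where edgeR called 0 (19 at an unadjusted p under 0.05). Leaving out a library of HD brought the count to 0 by edgeR (76 genes at an unadjusted p under 0.05 without replicate 1, 87 without replicate 2). Leaving out a wild-type library did so too (86 without replicate 1, 83 without replicate 2), while 57 and 58 genes were called without replicate 1 and replicate 2 of EH. Without either library of EH, 2.02% of all genes were called. A fit of HD and wild type alone called 59 of 1318, all 5 among them, with 2.21% of all genes called. Markers of neural progenitors (4 genes, summed) stood at 101 and 97.0 TPM in HD, against 36.8 and 37.0 TPM in wild type, and their part in these calls was not tested.

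EH differed from wild type in more genes near the regions, mostly downward. Of the same 1346 genes 90 rose (6.69%) and 313 fell (23.3%), against 10.1% and 12.1% of all coding genes tested (9.61% and 11.6% of all genes). The genes near no region with H3K4me3 were close to all genes in the downward share, with 43 of 374 lower (11.5%) and 24 higher (6.42%), while 270 of the 972 genes near both classes fell (27.8%). Genes nearest to a region with H3K4me3 alone had 626 of 2910 lower (21.5%). The difference between these classes was not tested. The EH count rested on single libraries: 403 genes were called in all, 36 without wild-type replicate 1, 29 without wild-type replicate 2 and 628 without EH replicate 1, when 0.95%, 0.598% and 37.0% of all genes were called.

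The largest falls in EH included Mafa, a leucine zipper factor, at 6.51 and 6.00 TPM in EH, against 82.3 and 85.3 TPM in wild type (-3.73 ± 0.12 on the log2 scale; edgeR, adjusted p = 0.000165). Fxyd7, a regulator of the sodium pump in neurons, had 0.90 and 0.34 TPM in EH, against 13.8 and 13.5 TPM (-4.40 ± 0.42), and Inhbb, an inhibin beta subunit, 0.47 and 0.22 TPM, against 5.22 and 6.40 TPM (-4.03 ± 0.39). The leptin receptor Lepr (-3.29 ± 0.60), Prom2 (-3.43 ± 0.49) and the cadherin Cdh23 (-3.25 ± 0.40) fell as well. Rises were of Nhlh1, a helix-loop-helix factor of neurons, with 4.24 and 9.58 TPM in EH, against 0.76 and 0.53 TPM in wild type (3.43 ± 0.51), of Ghrh, the growth hormone releasing hormone, with 43.5 and 42.1 TPM, against 10.8 and 6.73 TPM (2.27 ± 0.25), and of the guidance ligand Slit3 (2.00 ± 0.18), the neuropeptide Adcyap1 (2.44 ± 0.49), Mbl2 (2.80 ± 0.54) and Gata4 (2.37 ± 0.52). Interneuron factors near a region fell in 5 of 10 tested and rose in 0 (full list 8 and 2 of 17), with Pax2 at 0.31 and 0.27 TPM in EH, against 1.50 and 1.64 TPM in wild type (-2.31 ± 0.28). Of genes with a start window that overlapped a region, 0 rose and 4 fell of 17 tested. Of all coding genes 10.1% rose and 12.1% fell, and of all genes 9.61% and 11.6%. The 4 were Palm3 (-1.23 ± 0.13), Rap1gap (-1.44 ± 0.18), Slc13a2 (-2.27 ± 0.39) and Gpnmb (-1.56 ± 0.42). Another start window of Rap1gap lay under H3K4me3, and among genes with none there 0 rose and 3 fell of 13. Trophoblast markers summed to 84.2 and 23.1 TPM in EH, against 528 and 449 TPM in wild type, and endoderm markers to 395 and 259 TPM, against 646 and 797 TPM. The trophoblast and gut factor Cdx2 fell with them (-2.62 ± 0.60), and the part of such cells in the EH calls was not tested.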

How the data were processed

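Gene starts, gene places, marks and RNA were joined by genome position (mm10 in the submitters' processing notes). Members and lists were chosen with earlier results of these data known. The submitters' processing notes name MACS2, Bowtie2 and Trim Galore, and also STAR, RSEM, Subread, featureCounts, SAMtools and DESeq2, without versions or roles. The RNA files give an expected count and TPM per gene, per the file headers. The authors' peak lists, in MACS2 layout, give for each peak a fold enrichment ratio and a −log10 q; the −log10 p was not used. The authors deposited 1 list per mark and genotype (2 libraries for H3K27me3, 1 for H3K9me3), and how replicates were combined is not given in the sources used here. The wild-type H3K27ac list has peaks named K27ac_KO; its label was followed. Where entries shared both ends, the most enriched was kept.

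An overlap of 1 base or more counted. The nearest coding gene was the gene overlapped or the closest by either end (RefSeq, GRCm38.p6); 21024 of 21887 coding genes (96.1%) matched an RNA gene by symbol or synonym. Intervals are exact Clopper-Pearson at 95% and, like the floor of 3 counts, cover counting error only, since no molecular identifiers are named in the labels. In R 4.3.3, edgeR 4.0.16 tested the rounded expected counts by quasi-likelihood after TMM scaling and filterByExpr, and calls have an adjusted p (Benjamini-Hochberg) under 0.05, in 1 fit of the 6 motor neuron libraries and 1 of all 8. Each SE was derived from the F statistic (log2 fold change over its root). Total expected counts ran from 11.2 to 53.2 M, with HD and wild-type motor neurons at 11.2 to 13.9 M and EH at 39.7 and 39.8 M. Named were the 6 widest and 6 most enriched regions, 4 each of 3 further kinds, 6 rises and 6 falls per comparison (mean of 1 TPM or more in the higher group), all HD calls, 8 genes of highest level and up to 4 per gene list; some of these are not described. Code was tested on simulated data. Python 3.11.15 was used with scipy 1.17.1, pandas 2.3.3 and numpy 2.4.6. DESeq2 1.42.0, other filters, rules and left-out libraries were tried as alternatives.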

Additional observations from a re-analysis of the deposited data

Results flagged for a closer look

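The effect of the knockout label differed between the lines in 14 of the 17 genes named for HD or EH, by a test of HD minus EH in the same edgeR fit (Benjamini-Hochberg adjusted p between 5.53e-05 and 0.025). Of the 5 genes named for HD, 4 were higher in HD than in EH: Dmrt3 by a log2 difference of 2.60 ± 0.17, Chl1 by 1.76 ± 0.13, Ntng1 by 1.37 ± 0.13 and Ddhd1 by 0.80 ± 0.10. The other, Pou3f1, fell in both HD (-2.54) and EH (-2.34), and the test of its difference did not pass (-0.20 ± 0.20, edgeR adjusted p = 0.50). Of the genes that fell in EH, the difference was 4.46 ± 0.12 for Mafa, 3.90 ± 0.39 for Inhbb, 3.82 ± 0.43 for Fxyd7, 3.25 ± 0.60 for Lepr, 3.04 ± 0.40 for Cdh23 and 2.40 ± 0.55 for Prom2. Of those that rose in EH, it was -3.04 ± 0.50 for Nhlh1, -2.70 ± 0.55 for Gata4, -1.81 ± 0.18 for Slit3 and -1.58 ± 0.24 for Ghrh. These genes were named because they passed in 1 line, so a difference between the lines was likely to be found among them. The share of all genes that passed this test is not given here, so the count describes the named genes only.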

How the results depend on the processing

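The direction of each comparison with regions that carry H3K4me3 was not recomputed under the alternatives; the shares of the regions without H3K4me3 moved as follows, and the cause was not tested except where the rule itself removes regions. With regions under 3 kb apart joined first, 1398 remained, of which 43.1% overlapped H3K4me1, 8.15% H3K9me3 and 14.2% H3K27me3 of HD, and 17.7% had a gene end within 2 kb (15.6% where no H3K4me3 lay within 1 kb). At a −log10 q of 3 or more, 841 remained, with 38.2% under H3K4me1, 16.8% under H3K9me3, 37.6% listed in HD, 1.55% under H3K4me3 of HD and 48.3% in a coding gene. At a width of 1 kb or more, 615 remained, with 45.2%, 20.8%, 44.4%, 2.28% and 49.1% for the same, and 0.488% under Mnx1. With 50% of the region covered, the shares were 24.3% for H3K4me1, 4.46% for H3K9me3, 10.2% for H3K27me3 of HD, 0.246% for H3K4me3 of HD and 0.0351% for Mnx1. At a −log10 q of 3 in the other list, they were 3.37% for H3K9me3 and 7.96% for H3K27me3 of HD. For HD against wild type, 5 genes were called by edgeR, 35 by DESeq2, 31 with no filter, 59 with HD and wild type alone, 1 among genes with an end within 2 kb, and 0 to 58 on leaving out a library. With the replicate block the HD count was 0 by edgeR (117 at an unadjusted p under 0.05), and 9 with the crossed replicate block, which was chosen after seeing the data. The labels do not say that numbers pair libraries; same-numbered deviations correlated at 0.26 between HD and wild type and at -0.24 between EH and HD. For EH, 403 genes became 283 with the replicate block, 139 with an end within 2 kb and 29 to 628 on leaving out a library. Against ES cells, 1201 of 1534 became 1186 of 1534 with the replicate block, when 75.3% and 73.9% of all genes were called. With an end within 2 kb, 410 of 526 were called. Of these 45.1% rose and 32.9% fell, against 46.3% and 32.0% of the 1534. Median TPM with a gene end within 2 kb was 2.15 in HD, 1.34 in EH, 2.17 in wild-type motor neurons and 1.01 in ES cells; among genes of 1 TPM or more in a library it was 10.5, 8.37, 10.4 and 3.92 in that order. Of the other values, 29 shares, 32 gene counts and 8 TPM medians moved less. With 1 peak list per mark and genotype, ChIP shares have no replicate error, and weak regions near the caller's threshold may be listed in a genotype or not by depth alone, which was not tested.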
